A study of Mus musculus with 4 samples.

Results

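Type 1 conventional dendritic cells (cDC1) were examined in ascites from B6 mice bearing BeCon tumours, which the series title places in ovarian cancer. The cells were chosen by transcript: at least 3 UMIs (unique molecular identifiers, counted transcripts) of Xcr1 plus Clec9a, fewer than 3 of Fscn1, fewer than 30 of C1qa, C1qb and C1qc per 10000 UMIs, and at most 1 of Cd79a plus Cd3e. This gate held 474 of 6419 kept ascites cells, out of 13160 kept cells in the whole series. A cell was kept with at least 200 genes, at least 500 UMIs, at most 10% mitochondrial UMIs, and at least 80% of 20 or more hashtag UMIs from 1 hashtag. Each mouse bore the tumour. Of 8 mice, 4 received YKL-05-099, which inhibits salt-inducible kinases, and 4 received vehicle. Viable CD45+ MHCI+ cells had been sorted, and a hashtag antibody per mouse allowed the mice to share a droplet library. Dose, duration and age are not given in the sources used here. The treated mice gave 55, 66, 57 and 58 cDC1 cells (mice 1 to 4), and the vehicle mice gave 82, 48, 46 and 62. Tests of treatment took each mouse as 1 replicate.

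Conventional dendritic cells of type 1 arise through the transcription factors IRF8 and BATF3. They take up dead cells, in part through the receptor CLEC9A, and display peptides of the engulfed protein on MHC class I to CD8 T cells, a process called cross-presentation. XCR1 is the receptor for a chemokine that activated CD8 T cells and NK cells release. Salt-inducible kinases (SIK1, SIK2 and SIK3) phosphorylate the CRTC coactivators and class IIa histone deacetylases and hold them in the cytoplasm. When the kinases are inhibited, or when cyclic AMP rises, CRTC proteins enter the nucleus and bind the transcription factor CREB.

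The ascites library held 134034611 gene UMIs over 13688 barcodes, and all 8 mice shared it, so that arm and library were not confounded. Kept cells numbered 665 to 809 per treated mouse and 789 to 1095 per vehicle mouse. The 2 libraries of the series had 52 barcodes in common, 10 of them among kept cells and 0 among the cDC1 cells. The HTODemux method, which sets a limit for each hashtag separately, called 306 of the 474 cells singlets and 168 doublets. Nothing in the labels says whether the mice shared cages or were treated on the same day, so p-values measure the spread between these mice.

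The share of cDC1 among kept cells was 8.18%, 9.42%, 8.57% and 7.17% in treated mice 1 to 4, against 9.76%, 5.66%, 5.83% and 5.66% in vehicle mice 1 to 4. The vehicle values overlapped the treated ones through vehicle mouse 1, and the other 3 vehicle mice lay below every treated mouse. The means were 8.34% ± 0.93 and 6.73% ± 2.02 (SD, n = 4 each), a difference of 1.61 percentage points with p = 0.229 (exact two-sided permutation test). The smallest p that 4 against 4 mice allow is 0.0286. Without vehicle mouse 1 the difference was 2.62 points with p = 0.0571, the smallest p that 3 against 4 allow in that exact test. Among the cells of 3 dendritic cell gates the direction turned. The Fscn1 gate for migratory cells held 49, 58, 49 and 30 cells in treated mice, against 16, 22, 18 and 11 in vehicle mice. cDC1 then made up 47.4% ± 6.8 of gated dendritic cells in treated mice and 54.3% ± 9.8 in vehicle mice (exact permutation p = 0.229, n = 4 each).

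Depth per cell was of like size in the arms. The median cDC1 cell had 19702, 18164, 18325 and 19232 UMIs in treated mice 1 to 4, against 20021, 19232.5, 20539 and 20093 in vehicle mice. The difference of the treated and vehicle means was -1116 UMIs (exact permutation p = 0.0571, n = 4 each, adjusted p = 0.171 over the share, the depth and the cycling share). The median number of genes detected per cell averaged 3593 ± 53 in treated mice and 3679 ± 34 in vehicle mice, without overlap (exact permutation p = 0.0286, n = 4 each). Other kept cells of the same mice were shallower, with medians of 4602 to 9950 UMIs in treated mice and 5591 to 11374 in vehicle mice.

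**Figure D1:**
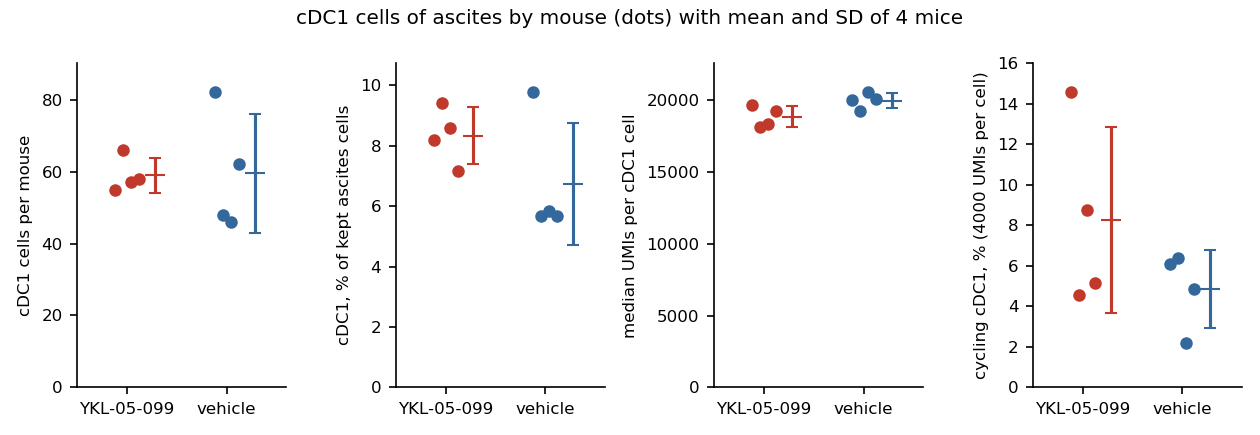
The panels give, for each mouse (dots) of the YKL-05-099 arm (left) and the vehicle arm (right), the number of cDC1 cells, their share of kept ascites cells in percent, the median UMIs per cell and the share of cycling cells in percent. Horizontal marks with bars are the mean and SD of 4 mice; the arms overlap in every panel, and vehicle mouse 1 has the highest share at 9.76%.

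Marker transcripts that the gate did not use went with the cDC1 label. Itgae, the integrin chain CD103, averaged 398 ± 46.4 CPM in the gated cells over 8 mice (SD), against 14.1 in the other kept cells. CPM are the UMIs of a gene over a mouse's cells, scaled to the same total in every mouse. Cadm1, an adhesion molecule of cDC1, averaged 150.2 ± 35.2 against 8.62, and Naaa, a lysosomal amidase of cDC1, averaged 1117 ± 295 against 109. These are descriptions with no test, since the gate and the markers describe the same cells. Markers of other cell types were summed per mouse, and some of these sums hold genes that the gate itself limited. The summed macrophage list (C1qa, C1qb, C1qc, Adgre1, Mrc1, Lyve1, Fcrls, Apoe) reached 592 to 693 CPM in treated cDC1 and 778 to 1335 in vehicle cDC1, against 5387 to 9260 and 14509 to 22216 in the other kept cells of those arms. The gate limited C1qa, C1qb and C1qc, so part of that gap was set by the choice of cells. Of the macrophage genes it did not use, Apoe averaged 601 CPM over 8 mice against 8127 in the other kept cells. Mrc1 averaged 10.7 against 202. The B cell list, which holds the gate gene Cd79a, summed to 62.7 to 113 in treated cDC1 and 120.3 to 163 in vehicle cDC1. In both lists no marker was at 0 over all mice, while Wt1 and Msln of the epithelial or mesothelial list were, and the part of these transcripts in the differences between arms was not tested.

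The gate's lower edge fell within a gradual decline. Cells with 3 UMIs of Xcr1 plus Clec9a (53 cells) had 328 Itgae and 812 Naaa CPM, cells just outside with 2 UMIs (61 cells) had 252.0 and 789, and cells with 1 UMI (135 cells) had 76.0 and 242. The Fscn1 edge was sharp. Only 5 cells with 3 or more Fscn1 UMIs met the other limits, and these held 2751 CPM of Ccr7, the receptor that guides mature dendritic cells to lymph nodes, against 21.2 in the members.

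Because Xcr1 and Clec9a chose the cells, their levels are a description. Xcr1 stood at 104, 126, 153 and 114 CPM in treated mice 1 to 4, against 254, 245, 223 and 292 in vehicle mice 1 to 4. Clec9a stood at 215, 231, 228 and 212 in treated mice, against 244, 245, 209 and 258 in vehicle mice. Xcr1 was thus lower in every treated mouse, while the Clec9a ranges overlapped. A gate on Clec9a alone (at least 3 UMIs, 357 cells), added after the data were seen, left Xcr1 free to be tested. There Xcr1 stood at 91.0, 116, 128 and 113 CPM in treated mice, against 269, 259, 234 and 287 in vehicle mice, and fell by 1.26 ± 0.12 on the log2 scale (SE, adjusted p = 1.41e-09, edgeR over 6243 genes). The main gate counts Xcr1, and how the lower Xcr1 level moved the share was not tested beyond this second gate. With the gate on Clec9a alone the share was higher by 0.664 points in treated mice (exact permutation p = 0.429).

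Genes of treated cDC1 differed from vehicle in both directions to a like extent. Of 6973 genes tested on sums per mouse with edgeR's quasi-likelihood test, 571 were higher and 611 lower in treated mice at a Benjamini-Hochberg adjusted p under 0.05. These calls made up 17.0% of the tested genes, 8.19% higher and 8.76% lower. The arms did not overlap in 1299 of the 6973 tested genes (18.6%, either direction), a share to set beside each such statement below. Changes larger than 1 on the log2 scale numbered 137 higher and 122 lower, and the median log2 change of all tested genes was -0.00. The first principal component of the mouse sums carried 55.1% of the variance and put the 4 treated mice on one side and the 4 vehicle mice on the other. In 808 of the 1182 called genes, cDC1 of the arm with more transcript exceeded the other kept cells of that arm. Taking the arm with more transcript can raise that number, and the like number over all tested genes was not counted. In 6 of the 1182 called genes the cDC1 level was under 0.1 of that in the other cells (2 higher and 4 lower). By the same rule this held for 47 of the 6973 tested genes. The part of RNA released from other cells was not tested.

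Gcnt2, an enzyme that branches poly-N-acetyllactosamine sugar chains, rose with the smallest p of all genes. It stood at 243, 238, 243 and 262 CPM in treated mice 1 to 4, against 16.3, 13.4, 15.4 and 10.3 in vehicle mice 1 to 4 (log2 change 4.11 ± 0.15 SE, adjusted p = 4.04e-21). Ramp3, a partner protein of calcitonin-family peptide receptors that couple to cyclic AMP, had the largest change among genes without overlap and with a mean log2 CPM of at least 4. Its values were 60.1, 114, 76.3 and 102 in treated mice, against 3.14, 2.23, 3.07 and 2.37 in vehicle mice (log2 change 4.93 ± 0.28, adjusted p = 5.38e-14). Vdr, the vitamin D receptor, stood at 29.6, 36.8, 27.6 and 32.7 in treated mice, against 3.14, 1.11, 1.02 and 1.58 in vehicle mice (log2 change 3.97 ± 0.34). Stat4, which signals for IL-12 and interferon receptors, stood at 32.4, 41.7, 49.6 and 27.4, against 2.51, 2.23, 4.10 and 3.16 in vehicle mice (log2 change 3.60 ± 0.31). In each of these genes no vehicle mouse reached any treated mouse, with adjusted p from 5.38e-14 to 8.86e-11 for the last 3. Vehicle levels of Ramp3 and Vdr were 1 to 3 CPM, so the size of their fold rests on few transcripts.

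Crem, a CREB-family gene that is itself induced through CREB, stood at 239, 206, 276 and 246 CPM in treated mice 1 to 4, against 18.8, 8.91, 22.5 and 42.7 in vehicle mice 1 to 4 (log2 change 3.30 ± 0.28, adjusted p = 4.47e-05). Plet1, a surface protein of some intestinal and thymic cells and dendritic cells, stood at 289, 279.7, 221 and 416 in treated mice, against 24.5, 44.5, 35.8 and 48.3 in vehicle mice (log2 change 2.99 ± 0.27, adjusted p = 0.00014). Map3k14 encodes NIK, the kinase that starts noncanonical NF-kB signalling, and stood at 84.1, 121, 111 and 153, against 20.1, 23.4, 20.5 and 25.3 in vehicle mice (log2 change 2.37 ± 0.18, adjusted p = 1.4e-11). Timd4, a receptor for phosphatidylserine on dying cells, spread widely within each arm. Its values were 95.2, 218, 204 and 171 in treated mice, against 33.2, 7.80, 22.5 and 54.6 in vehicle mice (log2 change 2.43 ± 0.46, adjusted p = 0.0149, and 0.0523 without vehicle mouse 1). The remaining large rises were Ears2 (2.89, a mitochondrial glutamyl-tRNA synthetase), 4833407H14Rik (2.37), Ass1 (2.30, argininosuccinate synthase) and Afap1 (2.27, an actin-binding adaptor).

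**Figure D2:**
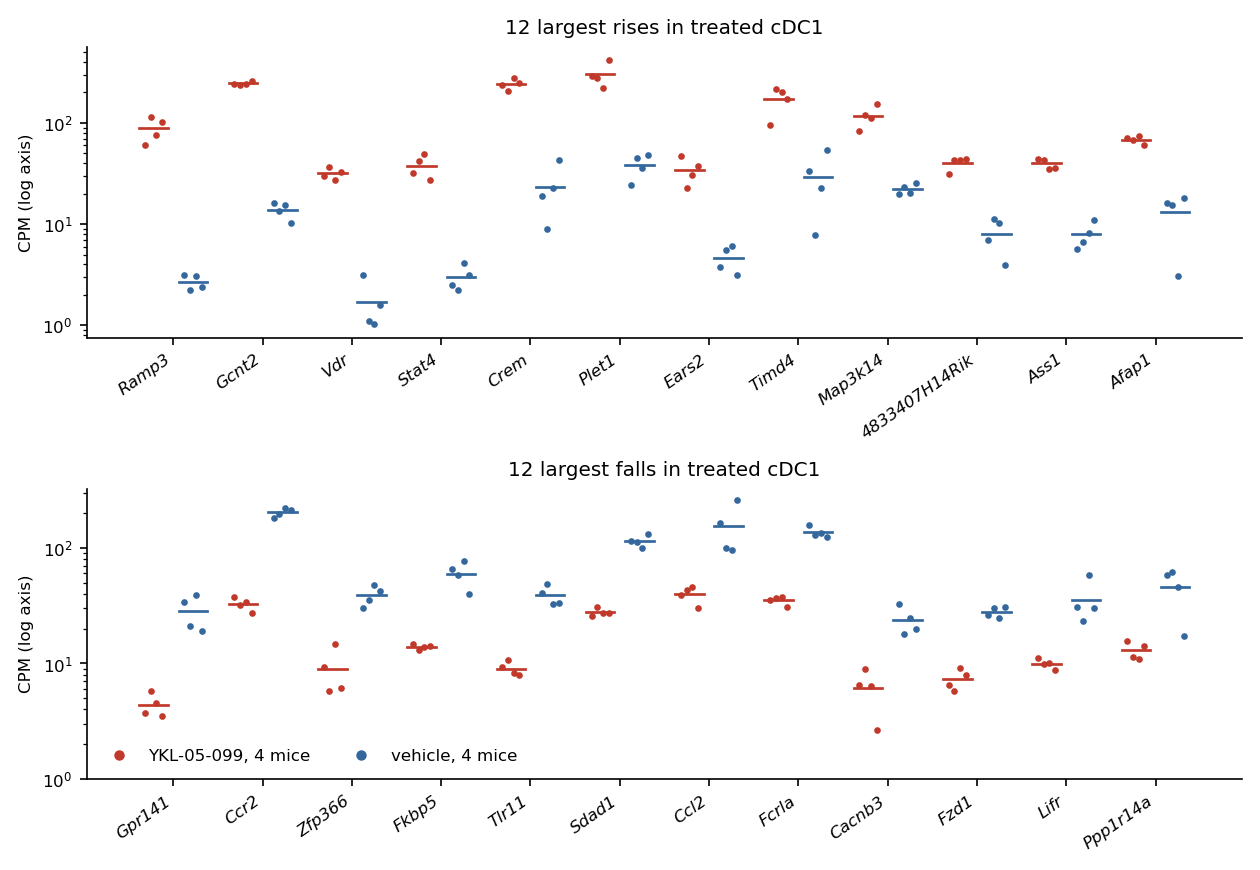
CPM (log axes) of the 12 genes with the largest rises (top) and the 12 with the largest falls (bottom) in cDC1, one dot per mouse, YKL-05-099 left in red and vehicle right in blue, lines at the means. Genes enter only where the arms do not overlap and the mean log2 CPM is at least 4; Gcnt2 lies at 238 to 262 in treated and 10.3 to 16.3 in vehicle mice, while Timd4 spreads over 95.2 to 218 and 7.80 to 54.6.

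Among the falls, Ccr2, the chemokine receptor through which monocytes and dendritic cells answer CCL2, had the smallest p. Ccr2 stood at 37.9, 31.9, 34.01 and 27.4 CPM in treated mice 1 to 4, against 181, 196, 222 and 214 in vehicle mice 1 to 4 (log2 change -2.65 ± 0.13, adjusted p = 8.26e-17). Sdad1, a nucleolar protein, stood at 25.9, 31.1, 27.6 and 27.4 in treated mice, against 114, 111, 99.3 and 131 in vehicle mice (log2 change -2.05 ± 0.14, adjusted p = 7.08e-13). Zfp366, also known as DC-SCRIPT, a transcription factor of conventional dendritic cells, stood at 9.24, 5.72, 14.7 and 6.19, against 30.1, 35.6, 48.1 and 42.7 in vehicle mice (log2 change -2.14 ± 0.26, adjusted p = 1.15e-07). The treated mice lay close together in Ccr2 and Sdad1 and below every vehicle mouse. Gpr141, an orphan receptor, had the largest fall by the same rule (-2.68 ± 0.32), with 3.54 to 5.72 CPM in treated mice and 18.99 to 38.9 in vehicle mice. Its neighbour in sequence, Gpr141b, also fell (-1.18, adjusted p = 1.1e-07), and reads of such related genes can be split uncertainly. Fkbp5 (-2.11), a chaperone of steroid receptors, Fcrla (-1.99), an intracellular Fc receptor-like protein, Fzd1 (-1.94), a Wnt receptor, Lifr (-1.84), a cytokine receptor chain, and Ppp1r14a (-1.82), an inhibitor of a protein phosphatase, completed the falls beside Tlr11, Ccl2 and Cacnb3, which are described with their groups.

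Genes of the cDC1 identity list were more often lower than higher in treated mice. Of 25 tested genes of the list, 14 fell and 2 rose, and the median log2 change was -0.40, against -0.00 over all tested genes. The list also holds Zeb2 and Nfil3, which do not mark these cells and were not called. Zeb2 averaged 16.6 CPM in the gated cells against 447 in the other kept cells, and Nfil3 averaged 92.5 against 123. Naaa stood at 916, 796, 830.1 and 836 CPM in treated mice 1 to 4, against 1361, 1411, 1346 and 1443 in vehicle mice 1 to 4 (log2 change -0.74 ± 0.07, adjusted p = 3.12e-09). Cadm1 stood at 98.9, 123, 125 and 133, against 183, 174, 164 and 201 in vehicle mice (log2 change -0.61 ± 0.11, adjusted p = 9.94e-05). Wdfy4, a protein that cross-presentation of cell-associated antigen needs, stood at 644, 612, 621 and 589, against 848, 835, 669.8 and 846 in vehicle mice (log2 change -0.40 ± 0.08, adjusted p = 0.000563). No treated mouse reached the lowest vehicle mouse in these 3 genes. Ifi205 (-0.98), Id2 (-0.63), the inhibitor of E proteins needed for cDC1, Btla (-0.87), an inhibitory receptor, Bcl6 (-0.62) and Flt3 (-0.35), the receptor of the growth factor FLT3L, were also lower. Of the markers of other cell types, Clec10a, a cDC2 lectin, was higher (9.24, 29.4, 22.98 and 41.5 CPM in treated mice, against 6.27, 8.91, 10.2 and 9.49 in vehicle mice, log2 change 1.58 ± 0.37, adjusted p = 0.00552), with overlap. Ighm, a B cell immunoglobulin chain, was lower (99.8, 94.9, 97.4 and 58.3, against 124, 114, 149 and 108 in vehicle mice, log2 change -0.52 ± 0.15, adjusted p = 0.0129), and the other kept cells held 288 in treated and 1365 in vehicle mice. The part of other cell types in the identity genes was not tested.

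The 2 transcription factors on which the lineage rests differed little. Irf8 stood at 817, 843, 941 and 941 CPM in treated mice 1 to 4, against 963, 776, 814 and 1205 in vehicle mice 1 to 4, and did not pass the test (log2 change -0.11 ± 0.11, adjusted p = 0.547). Batf3 stood at 157, 119, 133 and 135, against 163, 175, 154 and 177 in vehicle mice, with overlap (log2 change -0.32 ± 0.11, adjusted p = 0.0345). The Batf3 call was lost when any of 6 single mice was left out, treated mice 2, 3 and 4 and vehicle mice 1, 2 and 4, with adjusted p from 0.0593 to 0.159. Itgae stood at 316, 348, 399 and 405, against 427, 439, 456 and 397 in vehicle mice, and missed the threshold (log2 change -0.25 ± 0.09, adjusted p = 0.0563). It passed without treated mouse 4 (adjusted p = 0.038) or vehicle mouse 4 (0.0162). Plet1 and Rab7b, a vesicle-traffic GTPase (0.55, adjusted p = 0.000199), were the members that rose.

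In the MHC class II list regulators and peptide exchange proteins were lower, while the chains H2-Aa, H2-Ab1 and H2-Eb1 and the invariant chain Cd74 did not pass the test. Of 15 tested genes, 8 fell and 1 rose, with a median log2 change of -0.29. Ciita, the master activator of class II genes, stood at 66.6, 49.1, 65.3 and 53.02 CPM in treated mice 1 to 4, against 135, 175, 216 and 151 in vehicle mice 1 to 4 (log2 change -1.55 ± 0.15, adjusted p = 7.15e-09). H2-Ab1, a class II beta chain, stood at 9373, 9379, 9152 and 9527 in treated mice, against 9123, 9682, 9246 and 9034 in vehicle mice (log2 change -0.01 ± 0.06, adjusted p = 0.935). The H2-Ab1 ranges overlapped. March1, a ubiquitin ligase that removes class II and CD86 from the surface, stood at 67.5, 59.7, 57.9 and 71.6, against 133, 137, 153 and 228 in vehicle mice (log2 change -1.37 ± 0.15, adjusted p = 3.19e-07). Cd83, a maturation marker that counters that ligase, rose (245, 297, 302 and 306 in treated mice, against 114, 140.3, 133 and 124 in vehicle mice, log2 change 1.15 ± 0.10, adjusted p = 2.79e-10). H2-DMa (-0.37) and H2-DMb1 (-0.29), which load peptides on class II, H2-Oa (-0.60), which restrains that loading, and the lysosomal proteins Ctss (-0.44) and Ifi30 (-0.55) were lower.

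On the class I side the changes were small and mixed. Of 22 tested genes of peptide loading and cross-presentation, 5 rose and 3 fell, with a median log2 change of 0.10. The proteasome activators Psme1 (0.30, adjusted p = 0.00722) and Psme2 (0.33, adjusted p = 0.0152), the immunoproteasome subunits Psmb8 (0.25) and Psmb9 (0.28) and the chaperone Calr (0.24) were higher. The peptide transporter chains Tap2 (-0.48, adjusted p = 0.00313) and Tap1 (-0.27, adjusted p = 0.0484) were lower beside Wdfy4. The count that rose was 1 without treated mouse 1 and 2 without treated mouse 4, and 3 without treated mouse 2 or without vehicle mouse 1 or 2. The Tap1 call was lost without any mouse but vehicle mouse 3, with adjusted p from 0.0503 to 0.178. Psme1 was lost without treated mouse 1 (adjusted p = 0.051), and Psme2 without treated mouse 1 (0.0737) or vehicle mouse 3 (0.0603).

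Costimulatory genes were more often higher than lower in treated cDC1. Of 13 tested genes of costimulation and maturation, 6 rose and 1 fell, with a median log2 change of 0.57. Cd80, a ligand of CD28 and CTLA-4, stood at 22.2, 39.3, 29.4 and 30.9 CPM in treated mice 1 to 4, against 6.90, 4.45, 8.19 and 7.91 in vehicle mice 1 to 4 (log2 change 2.10 ± 0.27, adjusted p = 3.27e-07). Cd86, the other ligand of these receptors, stood at 132, 162, 138 and 136, against 89.1, 85.8, 116 and 85.4 in vehicle mice (log2 change 0.58 ± 0.12, adjusted p = 0.00075). Cd274, which encodes the inhibitory ligand PD-L1, stood at 42.5, 43.3, 35.8 and 30.05, against 21.3, 8.91, 12.3 and 11.9 in vehicle mice (log2 change 1.37 ± 0.23, adjusted p = 3.86e-05). Neither Cd80, Cd86 nor Cd274 overlapped between the arms, which held for 18.6% of all tested genes. Nfkb2 (0.74), the noncanonical NF-kB subunit, Icosl (0.57), the ligand of ICOS, and Marcksl1 (1.14) also rose. Cacnb3, a calcium channel subunit, fell (6.47, 8.995, 6.43 and 2.65 in treated mice, against 32.6, 17.8, 24.6 and 19.8 in vehicle mice, log2 change -1.98 ± 0.31, adjusted p = 1.08e-05). In the other kept cells Cacnb3 averaged 70.96 in treated mice and 21.4 in vehicle mice.

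Transcripts of full maturation stayed low in the gate, which excludes Fscn1-positive cells. Ccr7 stood at 32.4, 49.1, 19.3 and 30.05 CPM in treated mice 1 to 4, against 4.39, 7.80, 28.7 and 3.16 in vehicle mice 1 to 4, and did not pass the test (log2 change 1.70 ± 0.66, adjusted p = 0.145). Vehicle mouse 3 carried most of the vehicle Ccr7, and without it the log2 change was 2.73 with an adjusted p of 3.4e-06. The log2 change of Ccr7 was 3.71 with the gate set per 10000 UMIs (adjusted p = 3.37e-07). The 5 markers of migratory cells summed to 33.1 to 67.1 CPM in treated cDC1 and 27.7 to 129 in vehicle cDC1. That sum holds Fscn1, which the gate limited, and the part of migratory cells in these values was not tested. Cd40 (1.77 to 8.27 in treated mice, 1.58 to 4.10 in vehicle mice), Il12b (0.924 to 8.18, against 2.23 to 18.4) and the T cell attracting chemokine Cxcl9 (0.818 to 4.62, against 0 to 3.34) were under the low-count filter and were not tested. Of 15 tested cytokine and chemokine genes 4 fell and 0 rose at the threshold, with a median log2 change of -0.36. Ccl2, a monocyte attractant, stood at 38.8, 43.3, 45.96 and 30.05 in treated mice, against 164, 100.2, 95.2 and 259 in vehicle mice (log2 change -2.01 ± 0.39, adjusted p = 0.0152), with 198 and 357 in the other kept cells of these arms. Ccl3 (-0.84, adjusted p = 0.00068), Tgfb1 (-0.50, adjusted p = 0.00443) and Cxcl16 (-0.36, adjusted p = 0.0306) were the others. Without vehicle mouse 1 the count of falls was 2, and Tgfb1 had an adjusted p of 0.0726. The Cxcl16 call was lost without treated mouse 2 (adjusted p = 0.16), vehicle mouse 1 (0.0877) or vehicle mouse 2 (0.0653).

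Of 9 tested chemokine and migration receptors 5 fell and 0 rose in treated cDC1, a list that does not hold Ccr7 described above, with a median log2 change of -0.97. Beside Ccr2, Cxcr3, the receptor for CXCL9 and CXCL10, stood at 30.5, 15.5, 17.5 and 19.4 CPM in treated mice 1 to 4, against 68.99, 57.9, 62.5 and 75.2 in vehicle mice 1 to 4 (log2 change -1.71 ± 0.19, adjusted p = 1.43e-08). Ccr2 and Cxcr3 separated the arms in every mouse. Gpr183, the oxysterol receptor that positions dendritic cells in lymphoid tissue, overlapped (55.5, 27.8, 31.3 and 25.6, against 70.2, 71.3, 102 and 48.3 in vehicle mice, log2 change -1.07 ± 0.29, adjusted p = 0.0301). The Gpr183 call was lost without treated mouse 2, 3 or 4 or vehicle mouse 1 or 2, with adjusted p from 0.0757 to 0.0978. Cxcr4, the receptor of CXCL12, was lower by the test (-0.97, adjusted p = 0.0365). The integrin genes Itgb7, Itgb2, Itgal and Itgax, which mediate adhesion, did not pass. Without vehicle mouse 2 the count of falls was 3.

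**Figure D3:**
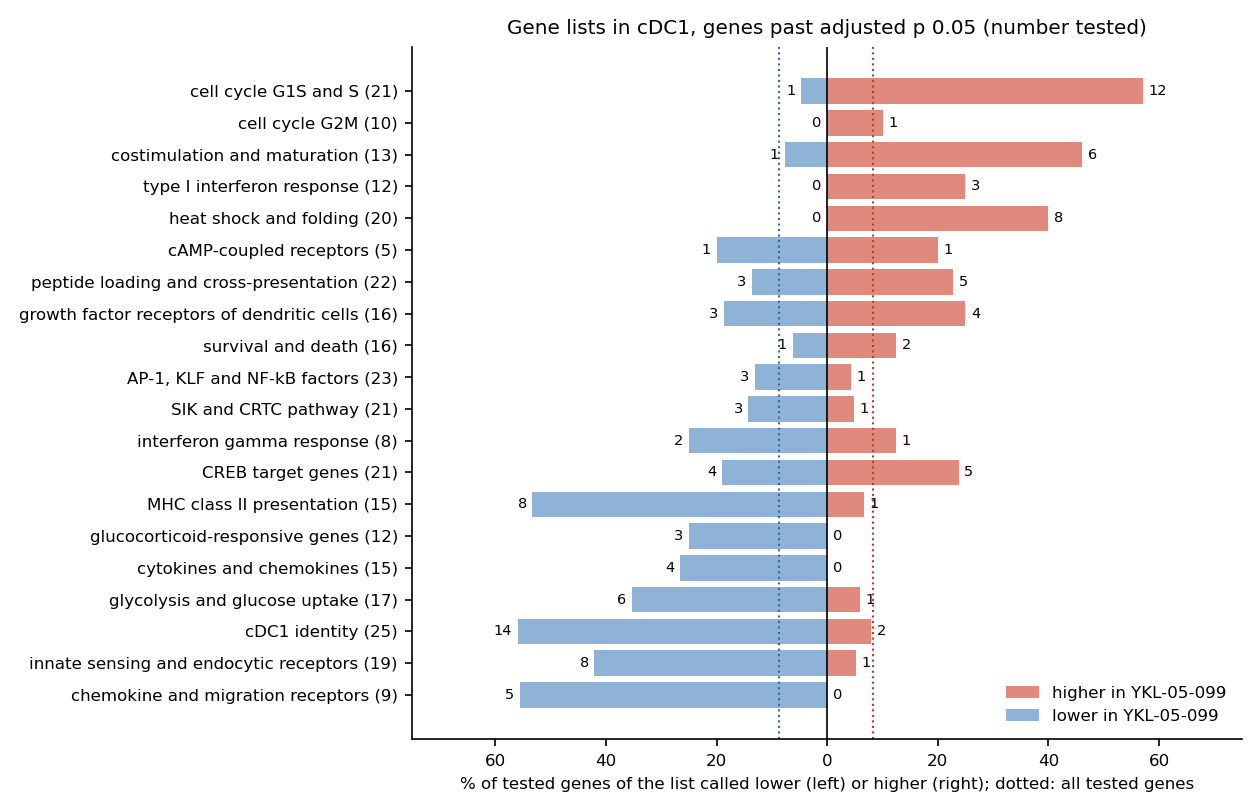
For each of 20 gene lists (rows, number of tested genes in brackets), the bars give the percent of tested genes that were higher (right, red) or lower (left, blue) in YKL-05-099 cDC1 at an adjusted p under 0.05, with the number of genes at the bar end, ordered by median log2 change. Dotted lines mark all tested genes, 8.19% higher and 8.76% lower; the G1/S list reaches 12 of 21 higher and the cDC1 identity list 14 of 25 lower.

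Transcripts of the drug's own pathway were called about as often as genes at large. Of 21 tested genes of the SIK and CRTC pathway, 1 rose and 3 fell, a share near the 17.0% of all tested genes. Sik1, a CREB target as well as a drug target, stood at 87.8, 87.5, 97.4 and 77.8 CPM in treated mice 1 to 4, against 145, 121, 135 and 98.9 in vehicle mice 1 to 4 (log2 change -0.54 ± 0.13, adjusted p = 0.00262). Sik2 (9.81 to 15.7 in treated mice, 9.49 to 19.4 in vehicle mice, log2 change -0.31 ± 0.28, adjusted p = 0.518) and Sik3 (31.3 to 36.1, against 22.5 to 31.99 in vehicle mice, log2 change 0.20 ± 0.18, adjusted p = 0.522) did not pass. The drug acts on the kinase proteins, which these counts do not measure. Crtc3, a CRTC coactivator, rose (0.94 ± 0.20, adjusted p = 0.000898), while Mef2a, a partner of class IIa histone deacetylases (-0.75 ± 0.12, adjusted p = 2.32e-05), and Ep300, a histone acetyltransferase (-0.41, adjusted p = 0.0423), fell. The Ep300 call was lost without any mouse but treated mouse 1, with adjusted p from 0.0533 to 0.156.

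Known CREB target genes split in direction. Of 21 tested, 5 rose and 4 fell, with a median log2 change of -0.22. Got1, the cytosolic aspartate aminotransferase, stood at 366, 388, 369 and 427 CPM in treated mice 1 to 4, against 96.6, 91.3, 54.3 and 109 in vehicle mice 1 to 4 (log2 change 2.10 ± 0.13, adjusted p = 1.48e-11). Pde3b, a phosphodiesterase that degrades cyclic AMP, stood at 114, 89.95, 95.6 and 86.6, against 33.9, 28.96, 34.8 and 39.6 in vehicle mice (log2 change 1.45 ± 0.15, adjusted p = 3.16e-09). Vps37b, an endosomal sorting protein, rose (1.18 ± 0.15, adjusted p = 4.17e-07), with Crem and, in a call described below that single mice decide, Ldha. Every treated mouse exceeded every vehicle mouse in Got1, Pde3b and Vps37b. Nr4a1, an immediate-early nuclear receptor, moved the other way, with 67.5, 114, 126 and 116 in treated mice, against 214, 198, 164 and 138 in vehicle mice (log2 change -0.78 ± 0.19, adjusted p = 0.0143). Rgs2, a brake on G-protein signalling, stood at 554, 730.2, 719 and 565, against 927, 1088, 1062 and 934 in vehicle mice (log2 change -0.67 ± 0.09, adjusted p = 3.18e-06). Sik1 and the clock gene Per1 (-0.77) completed the falls. Of 5 tested genes of receptors that couple to cyclic AMP, 1 rose (Ramp3) and 1 fell.

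The cyclic AMP response element, the palindrome TGACGTCA that CREB binds, was searched in RefSeq promoters (GRCm38.p6, 250 bases before to 50 after each start). The palindrome reads the same on both strands. It stood in 16 of 458 genes with a promoter entry that were higher in treated cDC1 (3.49%), in 16 of 481 that were lower (3.33%) and in 219 of 5610 tested genes (3.90%). The shares of the called genes were near that of all tested genes. Of genes changed by more than 1 on the log2 scale it stood in 5 of 98 that were higher (Epb41, Dtl, Amn1, B230354K17Rik and Cenpw, named after their values were seen) and in 0 of 87 that were lower. The promoters of 3 genes are printed to show the element in genes of opposite direction, with the element in capitals, from the strand of the gene. Dtl, a ubiquitin ligase adaptor that helps degrade the licensing factor CDT1, rose (1.24 ± 0.23, adjusted p = 0.00016) and lies at chr1:191575495-191575794, minus strand, with the element 17 bases before its start. Cenpw, a centromere protein, rose (1.23 ± 0.41, adjusted p = 0.0425) and lies at chr10:30200491-30200790, minus strand, with the element 58 bases before its start. Maff, a small MAF factor, fell (-0.61 ± 0.18, adjusted p = 0.0192) and lies at chr15:79347270-79347569, plus strand, with the element 29 bases before its start. The Maff call was lost without treated mouse 2 or 4 or vehicle mouse 2 or 3 (adjusted p from 0.0545 to 0.0947). A match is a description of these letters and not of binding.
Dtl: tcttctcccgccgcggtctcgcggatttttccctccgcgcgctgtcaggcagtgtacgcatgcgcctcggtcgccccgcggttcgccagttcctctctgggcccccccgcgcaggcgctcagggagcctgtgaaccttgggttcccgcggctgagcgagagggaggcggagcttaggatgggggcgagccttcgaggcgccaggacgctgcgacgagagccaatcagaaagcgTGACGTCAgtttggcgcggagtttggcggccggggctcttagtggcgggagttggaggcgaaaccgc
Cenpw: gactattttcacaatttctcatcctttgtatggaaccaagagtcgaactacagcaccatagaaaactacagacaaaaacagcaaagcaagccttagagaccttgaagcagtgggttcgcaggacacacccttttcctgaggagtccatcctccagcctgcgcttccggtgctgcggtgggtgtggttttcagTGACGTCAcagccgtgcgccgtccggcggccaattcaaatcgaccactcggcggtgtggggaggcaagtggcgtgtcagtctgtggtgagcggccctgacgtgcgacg
Maff: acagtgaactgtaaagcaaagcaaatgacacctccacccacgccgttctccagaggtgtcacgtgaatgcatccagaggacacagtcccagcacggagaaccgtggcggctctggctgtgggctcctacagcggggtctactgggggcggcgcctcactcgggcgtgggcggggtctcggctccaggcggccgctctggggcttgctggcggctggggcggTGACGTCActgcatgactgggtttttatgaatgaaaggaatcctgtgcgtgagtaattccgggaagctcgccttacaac

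Sensors of microbial and dead-cell products were more often lower than higher. Of 19 tested genes of innate sensing and endocytic receptors, 8 fell and 1 rose, with a median log2 change of -0.51. The rise, Irf5, a transcription factor of sensing pathways (0.28, adjusted p = 0.0381), was lost without treated mouse 2 or 4 or vehicle mouse 1, 2 or 3, and with DESeq2. Tlr3, the sensor of double-stranded RNA in cDC1 endosomes, stood at 44.4, 52.3, 49.6 and 42.4 CPM in treated mice 1 to 4, against 107, 98, 105 and 140.0 in vehicle mice 1 to 4 (log2 change -1.28 ± 0.14, adjusted p = 1.18e-08). Tlr11, a sensor of parasite profilin, stood at 9.24, 10.6, 8.27 and 7.95, against 40.8, 49, 32.8 and 33.2 in vehicle mice (log2 change -2.11 ± 0.23, adjusted p = 2.18e-08). Tmem173, which encodes the cytosolic DNA pathway protein STING, stood at 45.3, 31.9, 34.9 and 28.3, against 100.3, 114, 103 and 104 in vehicle mice (log2 change -1.61 ± 0.15, adjusted p = 2.84e-10). No value of a treated mouse reached a vehicle mouse in any of the 3. Fgl2, a secreted immunoregulatory protein, was lower (-0.997 ± 0.10, adjusted p = 9.69e-10), as were Fcrla and the adaptor Myd88 (-1.05, adjusted p = 2.6e-06).

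Some interferon-related genes passed the test and most did not, where 8.19% of all tested genes rose and 8.76% fell. Of 12 tested genes of the type I response, 3 rose and 0 fell at the threshold, with a median log2 change of 0.40. Ifi27l2a stood at 290.3, 231, 293 and 341 CPM in treated mice 1 to 4, against 89.7, 90.2, 82.96 and 78.3 in vehicle mice 1 to 4 (log2 change 1.73 ± 0.12, adjusted p = 2.8e-13). The other kept cells held 1039.6 in treated mice and 416 in vehicle mice. Trim25, a ubiquitin ligase, rose too (0.71, adjusted p = 0.000606). Of 8 tested genes of the interferon gamma response the receptor chain Ifngr2 rose (0.77 ± 0.15, adjusted p = 0.000184) and the chain Ifngr1 fell (271, 273, 313 and 271 in treated mice, against 494, 502, 429 and 426 in vehicle mice, log2 change -0.74 ± 0.09, adjusted p = 1.5e-07), with Socs3, a feedback inhibitor of cytokine signals (-0.36, adjusted p = 0.0314). The Socs3 call was lost without treated mouse 2, 3 or 4 or vehicle mouse 1 or 3 (adjusted p from 0.0615 to 0.141).

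Genes of DNA replication were more often higher than lower in treated cDC1. Of 21 tested genes of G1/S and S phase, 12 rose and 1 fell, with a median log2 change of 0.87. Mcm3, a subunit of the replicative helicase, stood at 48.1, 35.98, 37.7 and 43.3 CPM in treated mice 1 to 4, against 18.8, 17.8, 14.3 and 18.2 in vehicle mice 1 to 4 (log2 change 1.21 ± 0.20, adjusted p = 2.56e-05). Mcm6 (1.11 ± 0.20, adjusted p = 0.000152), Mcm4 (1.01 ± 0.24, adjusted p = 0.00313) and Mcm5 (0.87) of the same complex, the clamp Pcna (0.59) and the licensing factor Cdt1 (1.27) rose as well. Cdkn1b, the cell-cycle inhibitor p27, fell (134, 137, 161 and 148 in treated mice, against 227, 224, 162 and 177 in vehicle mice, log2 change -0.47 ± 0.11, adjusted p = 0.00285). Without vehicle mouse 1 the count of rises was 6, and without treated mouse 1 it was 7.

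Of 10 tested genes of G2 and mitosis, 9 lay above 0, with a median log2 change of 0.80, and DESeq2 called 4 higher. In edgeR's test 1 rose, the survivin gene Birc5 (51.8, 28.6, 38.6 and 16.8 CPM in treated mice 1 to 4, against 15.7, 8.91, 19.5 and 20.6 in vehicle mice 1 to 4, log2 change 1.01 ± 0.30, adjusted p = 0.0291). The count was 4 without treated mouse 2 or treated mouse 4, 2 without vehicle mouse 3 or 4, and 0 without treated mouse 3 or vehicle mouse 2. The Birc5 call itself was lost without treated mouse 1 or 3 or vehicle mouse 1 or 2 (adjusted p from 0.0626 to 0.105). Mki67, a proliferation marker, stood at 130.3, 37.6, 79.1 and 45.1, against 31.4, 31.2, 26.6 and 27.7 in vehicle mice. Every treated mouse exceeded every vehicle mouse, yet treated mouse 1 held more than 3 times treated mouse 2, and the test was not passed (log2 change 1.28 ± 0.45, adjusted p = 0.114). The log2 change was 0.84 without treated mouse 1 (adjusted p = 0.00747) and 1.51 without treated mouse 2 (adjusted p = 0.0204). The share of cells with at least 3 UMIs of cycle genes, after each cell was thinned to 4000 UMIs, was 14.5%, 4.55%, 8.77% and 5.17% in treated mice, against 6.098%, 6.38%, 2.17% and 4.84% in vehicle mice. The means of 8.26% ± 4.59 and 4.87% ± 1.92 (SD, n = 4 each) did not differ by the test (exact permutation p = 0.257), and without thinning they were 33.6% and 24.5% (p = 0.0857, exact permutation). B cells under the same rule gave 7.76% and 9.28% in the treated and vehicle arms. A stricter hashtag rule, a gate of 5 UMIs or no Fscn1 limit each gave p = 0.0286 in the exact test for this share, with differences of 5.25, 4.26 and 5.27 points.

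Folding genes were more often higher, and glycolysis genes more often lower. Of 20 tested heat shock and folding genes 8 rose and 0 fell at the threshold, with a median log2 change of 0.33, and 4 rose when vehicle mouse 2 was left out. Hsp90ab1, a cytosolic chaperone, stood at 1547, 1569, 1485 and 1408 CPM in treated mice 1 to 4, against 1081, 1035, 1100.0 and 1241 in vehicle mice 1 to 4 (log2 change 0.41 ± 0.07, adjusted p = 0.000135). Hspe1 (0.52 ± 0.10) and Dnaja1 (0.73 ± 0.14) rose too. Of 17 tested glycolysis genes 6 fell and 1 rose, with a median log2 change of -0.39. Hk2, the hexokinase that commits glucose, stood at 28.7, 35.98, 41.4 and 43.3, against 62.1, 64.6, 65.5 and 74.4 in vehicle mice (log2 change -0.86 ± 0.16, adjusted p = 0.000121), and Aldoa (-0.58), Pkm (-0.42) and Pgam1 (-0.39) were lower. Ldha, which the CREB target list also holds, was the rise (0.25, adjusted p = 0.0368). The Ldha call was lost without treated mouse 1, 2 or 4 or vehicle mouse 2 or 3, and with DESeq2. In the other kept cells Aldoa averaged 397 CPM in treated mice and 667 in vehicle mice.

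Growth factor receptors and survival genes changed gene by gene. Csf2rb, the shared signalling chain of the GM-CSF and IL-3 receptors, stood at 199, 182, 175 and 189 CPM in treated mice 1 to 4, against 83.4, 84.6, 87.1 and 99.7 in vehicle mice 1 to 4 (log2 change 1.04 ± 0.11, adjusted p = 7.22e-09). Kit, the stem cell factor receptor, stood at 149.8, 134, 165 and 151, against 68.99, 90.2, 91.2 and 80.7 in vehicle mice (log2 change 0.85 ± 0.12, adjusted p = 2.56e-06). Tnfrsf1b, a TNF receptor (0.997), and Il10ra (0.95) rose, while Il4ra (-0.82), Flt3 and Csf1r (-0.85) fell, which made 4 rises and 3 falls of 16 tested. Over all tested genes 8.19% rose and 8.76% fell. Of 16 tested survival genes Bcl2a1b (1.93 ± 0.34, adjusted p = 0.011) and Bcl2a1d (1.47 ± 0.22, adjusted p = 0.0033) rose and Mcl1 (-0.38 ± 0.08, adjusted p = 0.000542) fell. That share of calls was near the 17.0% of all tested genes. Bcl2a1b and Bcl2a1d are near-identical copies, so the division of reads between them is uncertain. Of 12 tested glucocorticoid-responsive genes 3 fell and 0 rose, beside 8.76% lower and 8.19% higher over all tested genes. The falls were Fkbp5 (14.8, 13.1, 13.8 and 14.1, against 65.2, 57.9, 76.8 and 39.6 in vehicle mice, adjusted p = 4.82e-09), Zfp36l2 (-1.20 ± 0.12, adjusted p = 3.65e-06) and Per1. Among 23 tested AP-1, KLF and NF-kB factors Nfkbie rose (0.71 ± 0.17, adjusted p = 0.00207) and Klf13 (-0.51), Jund (-0.28) and Maff fell, again a share near the 17.0% of all tested genes. The Jund call was lost without treated mouse 1 (adjusted p = 0.0687) or 2 (0.0805).

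The large changes were spread over many cells. With each cell thinned to 4000 UMIs, Gcnt2 was seen in a mean of 57.5% of treated cDC1 cells (50.9% to 61.4% over 4 mice) and 7.38% of vehicle cells (6.38% to 8.54%). Crem was seen in 59.7% of treated and 7.13% of vehicle cells, Got1 in 73.5% and 24.7%, and Ramp3 in 26.5% and 0.947%. Ccr2 was seen in 11.1% of treated and 45.8% of vehicle cells. Unthinned shares were higher throughout, at 91.2% and 18.8% for Gcnt2 and 39.4% and 80.7% for Ccr2. B cells thinned to the same depth gave Gcnt2 in 2.70% of treated and 0.766% of vehicle cells, Ramp3 in 6.35% and 3.48%, and Ccr2 in 7.93% and 5.81%. The Ramp3 share of vehicle cDC1 was thus under that of vehicle B cells. Crem was seen in 45.7% of treated and 9.26% of vehicle B cells, so B cells set no background level for it.

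The response of cDC1 was then set against that of 2 other dendritic cell gates of the same mice, by a test of the difference itself (class by treatment, with the mouse as a block). For cDC2, taken as Cd209a-positive cells without Xcr1 or Clec9a (214 cells), 2 treated and 4 vehicle mice had at least 20 cells. In that fit 33 of 7489 genes, 0.441%, responded differently, 20 of them more positively in cDC1. With at least 10 cells and all 8 mice the count was 68 of 7045. Gcnt2 rose more in cDC1 (difference of log2 changes 3.23 ± 0.30, adjusted p = 2.85e-13). The cDC2 cells held 139.7, 132, 134 and 96.8 CPM of Gcnt2 in treated mice 1 to 4, against 91.9, 77.5, 81.2 and 49.4 in vehicle mice 1 to 4. The arms did not overlap in cDC2 either, but lay closer together. Ece1, a peptide-processing protease, stood at 130.0, 138, 102 and 96.8 in cDC2 of treated mice, against 36.8, 32.1, 57.1 and 49.4 in vehicle mice, and its difference was -1.84 ± 0.28 (adjusted p = 9.38e-06). In cDC1 Ece1 stood at 166, 148, 210.5 and 186, against 204, 177, 145 and 237 in vehicle mice. Dab2, an endocytic adaptor, differed by 1.31 ± 0.23 (adjusted p = 0.000397), Slfn5 by -1.58 ± 0.28 (adjusted p = 0.000289) and the immediate-early gene Ier3 by -1.89 ± 0.25 (adjusted p = 6.95e-07).

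For migratory dendritic cells, taken as Fscn1-positive cells (253 cells), 4 treated mice but 1 vehicle mouse had at least 20 cells. The lone vehicle mouse is assumed to vary like the treated ones. There 87 of 8121 genes, 1.07%, responded differently, and with at least 10 cells, which admits 4 mice of each arm, the count was 186 of 7119. Values below are from the 8 mice. Bcl2a1b, a survival gene of the BCL2 family, stood at 313, 539.7, 496 and 462 CPM in cDC1 of treated mice 1 to 4, against 67.1, 83.5, 137 and 182 in vehicle mice. In migratory cells it stood at 739, 868, 887 and 1062 in treated mice, against 868, 978, 950.1 and 1028 in vehicle mice, with overlap, and the difference was 2.06 ± 0.21 (adjusted p = 3.02e-10). Tagln2, an actin-binding protein, was higher in cDC1 of treated mice (442, 489, 341 and 459, against 242, 210.5, 234 and 274 in vehicle mice) and differed by 1.52 ± 0.21 (adjusted p = 1.59e-06). In migratory cells Tagln2 was lower in treated mice (394, 427, 368 and 619, against 437, 931, 869 and 754 in vehicle mice), with overlap. Its log2 change there was -0.79 (edgeR adjusted p = 0.0146). Mt1, a metallothionein that binds zinc, was lower in cDC1 of treated mice (418, 446, 439 and 439, against 1531, 1267, 1290.5 and 908 in vehicle mice) and differed by -1.55 ± 0.21 (adjusted p = 3.19e-07). In migratory cells Mt1 stood at 544, 689, 602 and 398 in treated mice, against 1055, 534, 469 and 319.9 in vehicle mice, with overlap. Tspan13, a tetraspanin, differed by -1.50 ± 0.24 (adjusted p = 2.96e-05) and Nr4a2, a nuclear receptor, by -1.44 ± 0.28 (adjusted p = 0.000628). Nr4a2 passed edgeR's test in neither gate alone, with log2 changes of -0.41 in cDC1 (adjusted p = 0.455) and 0.94 in migratory cells (adjusted p = 0.0568).

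**Figure D4:**
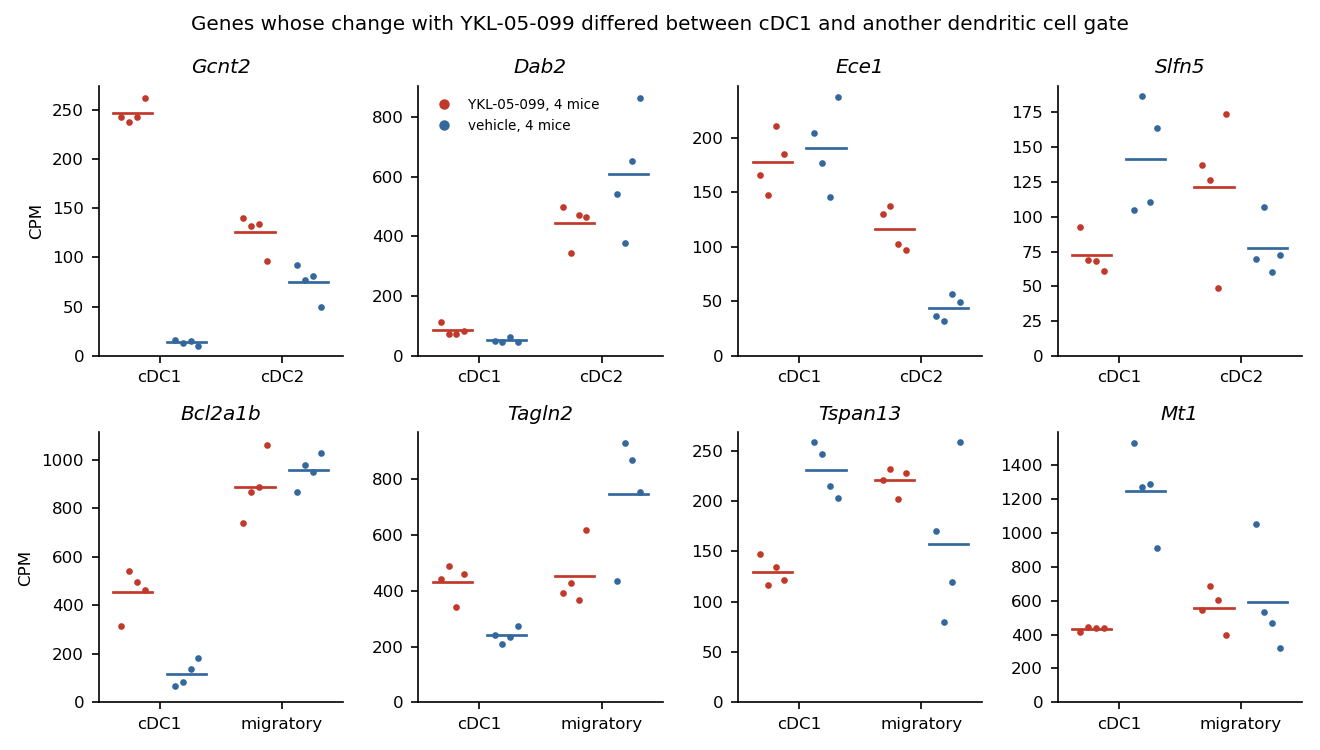
CPM of 8 genes in cDC1 and in a second gate of the same mice (top row cDC2, bottom row migratory cells), one dot per mouse, YKL-05-099 left in red and vehicle right in blue, lines at the means of 4 mice. All 4 mice of each arm are drawn, also those with under 20 cells of the second gate; Gcnt2 separates the arms widely in cDC1 and less in cDC2.

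The same gate found 52 cells in the spleens of 3 mice per arm and 0 in blood. Treated mice 2 to 4 gave 4, 5 and 10 spleen cells and vehicle mice 1 to 3 gave 15, 10 and 8, or 0.512%, 0.661% and 1.24% of kept spleen cells, against 2.36%, 1.71% and 1.34%. Tissue and library cannot be told apart here, and with so few cells the summed values are given with exact Poisson intervals for counting error and no test. Cd8a, a marker of the spleen-resident cDC1, stood at 204 (95% interval 162 to 253) CPM in treated and 187 (95% interval 154 to 225) in vehicle spleens, against 2.65 and 2.96 in treated and vehicle ascites. Itgae stood at 34.8 (95% interval 19.02 to 58.4) in treated and 68.5 (95% interval 49.2 to 92.9) in vehicle spleens, against 367 and 427 in treated and vehicle ascites.

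Few of the large changes of ascites could be seen in the spleen cells. Gcnt2 stood at 12.4 (95% interval 4.03 to 28.99) CPM in treated spleens and 6.68 (95% interval 1.82 to 17.1) in vehicle spleens, and Crem at 9.94 (95% interval 2.71 to 25.4) in treated and 10.03 (95% interval 3.68 to 21.8) in vehicle spleens. Plet1 and Ramp3 had 0 UMIs in both arms, where 3 UMIs would be 7.45 CPM in the treated and 5.01 in the vehicle sum. Xcr1, which the gate used, stood at 298 (95% interval 247 to 357) in treated and 251 (95% interval 212 to 294) in vehicle spleens. Among the falls, Fkbp5 stood at 19.9 (95% interval 8.58 to 39.2) CPM in treated and 85.2 (95% interval 63.5 to 112) in vehicle spleens. These sums hold 8 and 51 UMIs. By mouse it stood at 11.0, 41.1 and 14.0 in treated spleens 2 to 4, against 87.8, 88.3 and 77.9 in vehicle spleens 1 to 3, without overlap. How often the spleens of 3 mice per arm separate over all genes was not counted. Tlr11 stood at 91.9 (95% interval 64.7 to 127) in treated and 80.2 (95% interval 59.1 to 106) in vehicle spleens. Ccr2 stood at 29.8 (95% interval 15.4 to 52.1) in treated and 56.8 (95% interval 39.3 to 79.4) in vehicle spleens.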

How the data were processed

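Droplet RNA sequencing with hashtag antibodies was read from the deposited matrices of UMI counts per gene, hashtag and barcode, which per the file headers the authors made with Cell Ranger 6.1.1, on build mm10 per the submitters' processing notes. Mouse, arm and tissue of each hashtag came from the deposited hashtag notes. No step of read processing was repeated, and cell calling settings are not given in the sources used here.

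Cells were kept and gated as described above, and counts of a mouse's gated cells were summed. The cDC2 gate needed at least 2 Cd209a UMIs, the migratory gate at least 3 Fscn1 UMIs. Sums were tested with edgeR 4.0.16 in R 4.3.3 (robust quasi-likelihood F test, TMM scaling, filterByExpr), with Benjamini-Hochberg adjustment over all tested genes and a threshold of 0.05. Hashtag rows stayed out of library sizes. On simulated counts of 6973 genes, 100 were changed 2-fold and 100 were changed 4-fold. The test recovered 69% of the 2-fold and 92% of the 4-fold changes, and 8.52% of its calls were false. The data gave 1182 calls, many of smaller size, so these shares need not hold for them. Shares and depths were compared by exact permutation over mice in scipy 1.17.1, two-sided. Intervals and floors cover counting error only.

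Named genes were the 12 largest changes each way without overlap, up to 4 members past the threshold per list and a fixed set that included Irf8, Batf3, Ccr7 and the SIK genes; other list members were named after their values were seen. Some genes counted in the lists are not reported here by name. The gate and the gene lists were chosen with earlier results of these data known. Doublets were removed only by the hashtag rule; Seurat 5.3.0 HTODemux singlets were an alternative, with other gates, filters, DESeq2 1.42.0 and the omission of each mouse. With each arm's mean removed, correlations of same-numbered mice were 0.02, -0.03, -0.04 and 0.03, and those of other pairs lay between -0.0473 and 0.0541. Whether equal numbers stand for a shared cage or day cannot be read from these values.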

Additional observations from a re-analysis of the deposited data

Results flagged for a closer look

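In 204 groups of 4 mice examined (the share, depth, cycling share and 99 named genes in each arm), 8 held a mouse whose gap to its nearest neighbour exceeded the Dixon limit, where chance flags about 1 in 20 groups. The share of cDC1 in vehicle mouse 1 was 9.76%, against 5.66% to 5.83% in the other vehicle mice, with a gap of 0.959 of the range. Cd83 in treated mouse 1 was the lowest, at 245 CPM against 297 to 306 (gap 0.853), as was 4833407H14Rik in the same mouse, at 31.4 against 43.2 to 44.2 (gap 0.923). Ifngr1 in treated mouse 3 was the highest, at 313 against 271 to 273 (gap 0.947). Cxcl16 in treated mouse 2 was the lowest, at 84.2 against 107 to 108 (gap 0.937). Wdfy4 in vehicle mouse 3 was the lowest, at 669.8 against 835 to 848 (gap 0.929), and Cd86 in that mouse was the highest, at 116 against 85.4 to 89.1 (gap 0.881). Tgfb1 in vehicle mouse 1 was the highest, at 162 against 111 to 120 (gap 0.834).

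Genes whose response to YKL-05-099 differed between cDC1 and another gate are given as differences of log2 changes, cDC1 minus the other gate. Against cDC2 they were Gcnt2 (3.23), Phlda1 (2.86), S100a4 (1.56), Dab2 (1.31), Slfn5 (-1.58), Ece1 (-1.84), Ier3 (-1.89) and Ccl17 (-3.11). Of these, Phlda1 lost the threshold without treated mouse 2, S100a4 without vehicle mouse 2 and Ccl17 without treated mouse 1, and Ece1 lost it with a stricter Cd209a gate. The differences from cDC2 rest on 2 treated mice. With all 8 mice the difference was 0.998 ± 0.95 for Phlda1 (adjusted p = 0.844) and 1.34 ± 0.35 for S100a4 (adjusted p = 0.184), and neither passed. S100a4 stood at 86.9, 112, 45.96 and 96.3 CPM in cDC1 of treated mice, against 15.7, 32.3, 45.1 and 27.7 in vehicle mice, and at 2579, 3089.8, 2702 and 3029 in cDC2 of treated mice, against 2541, 2409, 2531 and 2239 in vehicle mice. Ccl17 stood at 32.4, 17.2, 6.43 and 20.3 CPM in cDC1 of treated mice, against 20.7, 2.23, 239 and 3.96 in vehicle mice. In cDC2 Ccl17 stood at 135, 23.5, 48.96 and 48.4 in treated mice, against 2.04, 0, 102 and 0 in vehicle mice. Vehicle mouse 3 held most of the vehicle Ccl17 in both gates, and the change passed edgeR's test in neither gate alone. With all 8 mice the Ccl17 difference was -3.18 ± 0.41 (adjusted p = 6.09e-07).

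Against migratory cells the differences were Olfr655 (11.13), Bcl2a1b (2.61), Tagln2 (2.15), Bcl2a1d (1.94), Mt1 (-1.56), Nr4a2 (-2.11), Tspan13 (-2.34) and Mt2 (-2.61). The Olfr655 value rests on vehicle mouse 2, the only vehicle mouse with at least 20 migratory cells, and the gene was under the low-count filter with 8 mice. Mt2, a metallothionein, had a difference of -1.81 ± 0.49 with 8 mice and did not pass (adjusted p = 0.108).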

How the results depend on the processing

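The share of cDC1 was 1.61 points higher in treated mice, but -0.769 (exact permutation p = 0.543) with at least 3 gate UMIs per 10000 and -6.95 among gated dendritic cells; it was 3.01 with at most 5% mitochondrial UMIs, 0.312 with at least 5 gate UMIs, and 1.25 to 2.62 without 1 mouse. Depth differed by -2367 UMIs with the gate per 10000, -375 with at least 5 gate UMIs, -481 with HTODemux singlets, and -1398 to -885 without 1 mouse. The cycling share differed by 1.29 to 4.62 points without 1 mouse, and by 5.25 (hashtag share 90% of at least 50), 4.26 (at least 5 gate UMIs) and 5.27 (no Fscn1 limit), each past the threshold in the exact permutation test. The 1182 changed genes became 665 with the gate per 10000 UMIs, 290 of 2108 tested with each cell thinned to 3000 UMIs and 768 with DESeq2's Wald test, and 877 to 1237 without 1 mouse. HTODemux singlets gave 896 calls, 809 of them shared, and a limit of 50 cells per mouse gave 812. With equal mouse numbers as a replicate block 1199 genes were called, 1126 of them shared, and Mki67 passed (1.25). Differences from cDC2 numbered 68 with at least 10 cells per mouse and 21 to 51 without 1 mouse (21 without treated mouse 2, 51 without vehicle mouse 4). Differences from migratory cells numbered 186 with at least 10 cells and 59 to 94 without 1 treated mouse; leaving out the only vehicle mouse gave no value. Without 1 mouse Irf8 ranged from -0.198 to 0.0157 and H2-Ab1 from -0.0356 to 0.00573. H2-Ab1 turned to 0.00849 (at least 5 gate UMIs), 0.0508 (gate per 10000) and 0.0239 (at least 50 cells). Pgam1 turned to 0.0473 with thinned cells (adjusted p = 0.906). The causes were not tested. Of 92 named genes past the threshold, 53 kept their call in every setting that tested them and 38 lost it in at least 1. Sums of 897915 to 1594489 UMIs per mouse limit what genes of a few CPM can show.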

Other observations

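Within the cDC1 gate, Ccr7 and Il12b, picked after their values were seen, were higher in vehicle mouse 3 than in the other vehicle mice. Ccr7 stood at 28.7 CPM in that mouse, against 3.16 to 7.80 in the other vehicle mice. Il12b, a subunit of IL-12, stood at 18.4 in that mouse, against 2.23 to 3.14 in the others. Other genes of that mouse went both ways. Cd274 at 12.3 (others 8.91 to 21.3), Cacnb3 at 24.6 (17.8 to 32.6) and Cd83 at 133 (114 to 140.3) lay within the range of the other vehicle mice. Cd80 at 8.19 (4.45 to 7.91) lay just above it. Cd86 at 116 (85.4 to 89.1) and the chemokine Ccl17 at 239 (2.23 to 20.7) lay further above it. The same mouse had 46 cDC1 cells, the fewest of all 8 mice. With each cell thinned to 4000 UMIs, Ccr7 was seen in at most 2.17% of the cDC1 cells of any vehicle mouse, and Il12b likewise in at most 2.17%. Without thinning the means of the vehicle mice were 7.96% for Ccr7 and 4.25% for Il12b. Whether few cells carry the values of vehicle mouse 3 was not tested.

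The Clec9a-only gate called 441 genes higher and 480 lower of 6243, and 865 of its 921 calls had the same direction and were called in the main gate too.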
